A study of Mus musculus with 15 samples.

Results

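Signals of 9 genes of the cholesterol synthesis pathway were read in NIH 3T3, an established line of mouse fibroblasts. The cells carried a plasmid with a human cDNA for one of the transcription factors C/EBPα, C/EBPβ, C/EBPδ and C/EBPε, or the plasmid with no insert, called vector here. The 9 genes are Hmgcs1, Mvd, Idi1, Fdps, Fdft1, Sqle, Lss, Cyp51 and Nsdhl, out of 8251 genes that the array annotation named by a single symbol. They were taken by name, with earlier results of these data known. A probe set (a group of oligonucleotides for 1 transcript) was kept where the annotation gave it one of these symbols alone. This found 14 probe sets, of which 12 were bright enough to test, and every gene had at least 1 of those. The plasmids placed the cDNA behind a metallothionein promoter, which zinc switches on, and transfected cells were selected with G418. All 15 cultures, the vector cultures included, had received zinc sulphate for 16 h before lysis. Total RNA of 3 cultures per group was hybridised to Affymetrix MG_74Av2 arrays. The labels call the transfectants polyclonal and the cultures triplicate clones, and it is not known here if each group's 3 cultures trace to 1 transfection or to several. The p-values therefore measure the spread between these cultures, and an effect of the C/EBP and a difference between transfected pools cannot be told apart.

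Cells build cholesterol from acetyl-CoA through mevalonate, isoprenoid diphosphates, squalene and lanosterol. The genes of this pathway share a main transcriptional regulator, SREBP-2, which is released from the endoplasmic reticulum when membrane sterol is low and binds sterol regulatory elements near promoters, often beside sites for NF-Y and Sp1. C/EBPs are leucine zipper transcription factors best known from differentiating fat, liver and myeloid cells. The 9 genes cover the pathway from Hmgcs1, the cytosolic synthase that makes HMG-CoA, to Nsdhl, which takes part in removing methyl groups from the sterol after lanosterol. HMG-CoA reductase and the LDL receptor were not analysed here.

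The values were deposited per probe set and array as linear signal. Array medians ranged from 992.25 to 1149.7 units before each array was scaled to a common median, and correlations of log2 signal within groups ran from 0.929 to 0.965. The measured C/EBP probe sets are for the mouse genes, so the human cDNAs were not checked on the arrays. All 10 fibroblast markers looked for were on the array and 9 were bright enough to test. Their summed signal was 107204 to 132909 units in C/EBPα, 153398 to 210408 in C/EBPβ, 121994 to 124613 in C/EBPδ, 122335 to 168380 in C/EBPε and 114569 to 155305 in vector cultures, so that each C/EBP overlapped vector and C/EBPβ lay above C/EBPα and C/EBPδ. Of the 9 tested, Col1a1, Col3a1, Pdgfrb and Lox rose in C/EBPβ, Col3a1 and Lox rose in C/EBPε, Lox rose and Thy1 fell in C/EBPα, and 0 were called in C/EBPδ, where 2 had an unadjusted p under 0.05. Their median log2 difference from vector was -0.23 in C/EBPα, 0.70 in C/EBPβ, -0.02 in C/EBPδ and 0.05 in C/EBPε. Of 5 adipocyte markers on the array, 2 (Lpl and Pparg) were bright enough to test. Both rose in C/EBPα, and 1 rose in each of C/EBPβ, C/EBPδ and C/EBPε. The 5 together summed to 11181 to 15328 units in C/EBPα, 1576 to 1783 in C/EBPβ, 2306 to 3028 in C/EBPδ, 1489 to 2122 in C/EBPε and 654 to 1245 in vector cultures. Most of the C/EBPα sum came from Lpl (9946, 8228 and 11343 units) and Pparg (2978, 2662 and 3310). Adipoq, Fabp4 and Retn were too dim to test, and their C/EBPα arrays overlapped those of vector. Of the markers of other cells on the array, 0 of 4 for hepatocytes, 2 of 6 for myeloid cells and 1 of 4 for epithelium were bright enough to test. The 6 myeloid markers summed to 6057 to 8673 units in C/EBPα, 6742 to 8478 in C/EBPβ, 7829 to 8127 in C/EBPδ, 6219 to 9235 in C/EBPε and 10113 to 10418 in vector cultures. One of the 2 tested, Cd68, a lysosomal protein abundant in macrophages, averaged 766 ± 60.5 units in C/EBPα, 1552 ± 172 in C/EBPβ, 2811 ± 103 in C/EBPδ, 1121 ± 43.1 in C/EBPε and 3103 ± 244 in vector cultures (SD, n = 3 each). It fell to 0.247-fold of vector in C/EBPα (adjusted p = 8.79e-08), 0.499-fold in C/EBPβ (0.000485) and 0.362-fold in C/EBPε (4.59e-06), and was 0.907-fold of vector in C/EBPδ (0.988). The other, Csf1r, was not called, with log2 differences of -0.03 in C/EBPα, -0.15 in C/EBPβ, -0.38 in C/EBPδ and 0.01 in C/EBPε. The part of the markers of each cell type in the results was not tested. In bulk RNA, fewer cells that make a transcript and less transcript per cell cannot be told apart.

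Compared with vector, most of the 9 genes were higher in cells with C/EBPα, C/EBPβ or C/EBPε. Their means in C/EBPδ cells lay between these and vector. With C/EBPα, 8 of the 9 genes rose at an adjusted p under 0.05 (limma, Benjamini-Hochberg over 6963 probe sets) against 7.17% of all probe sets tested. In cells with C/EBPβ 7 of 9 rose, against 5.13% of probe sets, and in those with C/EBPε 8 of 9, against 9.38%. In cells with C/EBPδ 1 of 9 rose, against 0.359%, and at an unadjusted p under 0.05 3 of 9 were higher, as were 229 of all 5338 genes tested. Each of the 9 genes had a mean above vector in each comparison, so 0 fell in limma's test, where the share of probe sets that fell was 7.15% in C/EBPα, 4.18% in C/EBPβ, 0% in C/EBPδ and 6.91% in C/EBPε. Each comparison used the same 3 vector arrays. The median log2 difference from vector over the 9 genes was 1.19 in C/EBPα, 1.31 in C/EBPβ, 0.25 in C/EBPδ and 1.40 in C/EBPε, where the medians over all 5338 genes tested were 0.01, 0.04, 0.01 and 0.08 in the same order. In all 9 genes the mean signal was lowest in vector and next lowest in C/EBPδ. It was highest in C/EBPε for 6 genes and in C/EBPβ for 3. Every array of the C/EBP group lay above every vector array for 8 genes in C/EBPα, 7 in C/EBPβ, 2 in C/EBPδ and 8 in C/EBPε, while 14.4%, 15.5%, 6.94% and 18% of all probe sets did so in the same order.

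**Figure D1:**
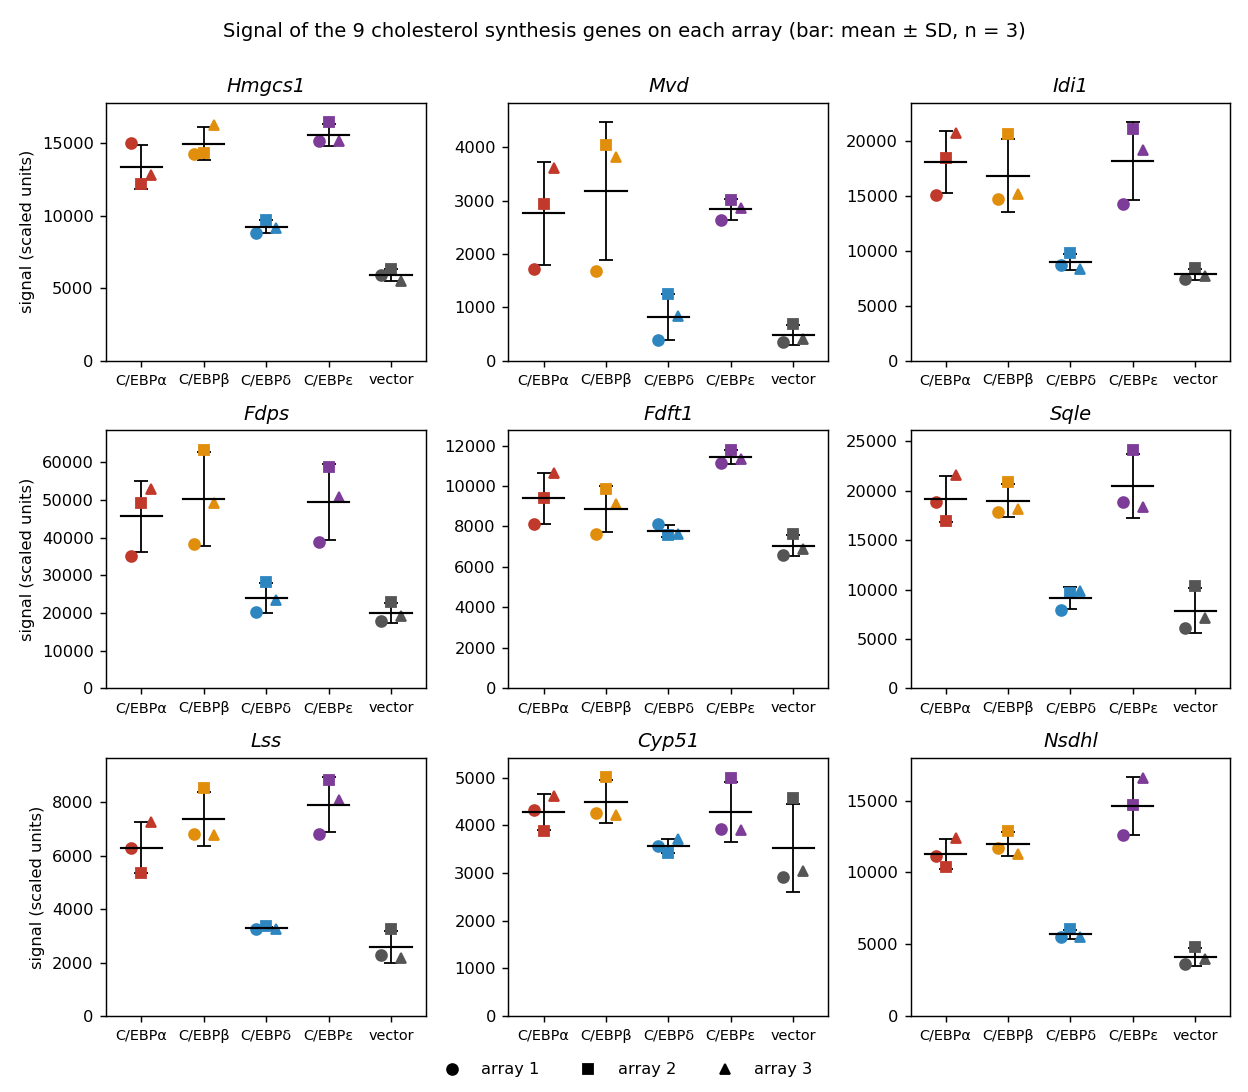
Signal of each gene's brightest probe set (scaled units, linear axis from 0) on the 15 arrays, in the order of the pathway, with circles, squares and triangles for the arrays numbered 1, 2 and 3 in the sample titles and bars for the mean ± SD of 3 arrays. C/EBPα, C/EBPβ and C/EBPε stand above vector for most genes, with Cyp51 the plainest exception, and C/EBPδ lies nearer to vector.

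Hmgcs1, at the entry to the pathway, was the only gene that passed the test in all 4 comparisons. Its probe set, 94325_at, gave 15026, 12149 and 12799 units in C/EBPα, 14252, 14314 and 16239 in C/EBPβ, 8827, 9722 and 9153 in C/EBPδ, and 15121, 16442 and 15144 in C/EBPε, against 5907, 6309 and 5484 in vector cultures. The vector arrays lay below all others, the C/EBPδ arrays stood alone in the middle, and the arrays of the other 3 C/EBPs overlapped above them, except that every C/EBPε array exceeded every C/EBPα array. The log2 difference from vector was 1.17 in C/EBPα (adjusted p = 2.06e-06), 1.34 in C/EBPβ (adjusted p = 3.84e-06), 0.65 in C/EBPδ (adjusted p = 0.0128) and 1.40 in C/EBPε (adjusted p = 2.54e-07), with an SE of 0.12 for each. C/EBPδ was thus 1.57-fold above vector. This call was lost without vector array 1 (adjusted p = 0.0695), vector array 3 (0.104), C/EBPδ array 2 (0.108) or C/EBPδ array 3 (0.0750), without the 5 arrays numbered 1 (0.150), and with only the C/EBPδ and vector arrays in the fit (0.128).

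Promoter windows show which of these genes carry the letters of the regulators named above. Each window ran from 250 bases before to 50 bases after the annotated start in RefSeq (build GRCm38.p6), and 6 of the 9 genes had one: Hmgcs1, Mvd, Idi1, Lss, Cyp51 and Nsdhl. Fdps, Fdft1 and Sqle had none. Windows are given for the first gene of the pathway, for the gene with the largest fold, for the last gene, and for Cyp51, which passed no comparison with vector. They lie at chr13:119690101-119690400 (+ strand), chr8:122443373-122443672 (- strand), chrX:72918271-72918570 (+ strand) and chr5:4104648-4104947 (- strand). Capitals mark TCACNCCAC, a sterol regulatory element, with at most 1 mismatch, and CCAAT, the NF-Y box, each on either strand (CCAAT reads ATTGG on the other strand).
Hmgcs1: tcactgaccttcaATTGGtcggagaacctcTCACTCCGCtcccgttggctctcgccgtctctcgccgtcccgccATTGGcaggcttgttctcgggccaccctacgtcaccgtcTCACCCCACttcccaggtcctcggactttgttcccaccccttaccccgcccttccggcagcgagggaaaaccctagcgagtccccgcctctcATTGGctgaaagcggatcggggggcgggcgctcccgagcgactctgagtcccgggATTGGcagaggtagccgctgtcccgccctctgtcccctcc
Mvd: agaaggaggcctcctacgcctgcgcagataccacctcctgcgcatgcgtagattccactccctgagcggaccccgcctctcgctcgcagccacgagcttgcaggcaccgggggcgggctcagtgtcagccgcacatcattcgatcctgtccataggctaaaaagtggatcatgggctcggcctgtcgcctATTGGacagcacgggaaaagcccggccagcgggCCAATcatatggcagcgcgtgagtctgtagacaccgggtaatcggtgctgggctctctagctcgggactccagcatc
Nsdhl: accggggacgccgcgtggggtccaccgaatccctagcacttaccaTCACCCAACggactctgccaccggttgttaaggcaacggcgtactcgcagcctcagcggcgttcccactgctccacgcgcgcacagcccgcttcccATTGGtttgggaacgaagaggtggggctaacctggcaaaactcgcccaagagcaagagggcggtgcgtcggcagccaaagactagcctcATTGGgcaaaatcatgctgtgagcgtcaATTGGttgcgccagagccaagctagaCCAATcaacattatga
Cyp51: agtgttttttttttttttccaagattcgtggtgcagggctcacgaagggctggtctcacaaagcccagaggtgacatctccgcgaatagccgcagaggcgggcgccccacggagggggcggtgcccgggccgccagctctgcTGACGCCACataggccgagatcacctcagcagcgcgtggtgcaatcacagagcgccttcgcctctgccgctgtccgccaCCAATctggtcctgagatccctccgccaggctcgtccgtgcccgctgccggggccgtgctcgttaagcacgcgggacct

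The exact letters TCACNCCAC, on either strand, were in 1 of the 6 windows, that of Hmgcs1, and in 1.24% of all 32851 windows. With at most 1 mismatch they were in 3, those of Hmgcs1, Cyp51 and Nsdhl, and in 24.2% of all windows. CCAAT was in 6 of 6 and in 37.4% of all windows, with 4 copies each in the Hmgcs1 and Nsdhl windows, 2 in Mvd and 1 in Cyp51. GGGCGG, a GC box of the kind Sp1 binds, was also in 6 of 6 and in 35.7% of all windows. CACGTG, an E-box, was in 0 of 6 and in 7.15% of all windows. TTGCNNAA, a C/EBP motif, was in 1, that of Nsdhl, where it overlaps a CCAAT box on the same strand, and in 10.8% of all windows. These are matches of letters in short windows, and binding was not measured.

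Mvd, the decarboxylase that makes isopentenyl diphosphate, had the largest fold of the 9 genes and the widest spread. Its probe set, 160770_at, gave 1721, 2947 and 3619 units in C/EBPα, 1690, 4038 and 3813 in C/EBPβ, 385, 1248 and 838 in C/EBPδ, and 2632, 3005 and 2871 in C/EBPε, against 359, 691 and 403 in vector cultures. No C/EBPα, C/EBPβ or C/EBPε array overlapped the vector arrays, while C/EBPδ array 1 lay below 2 of them. Mvd was 5.68-fold above vector in C/EBPα (adjusted p = 0.000417), 6.39-fold in C/EBPβ (adjusted p = 0.000542) and 6.10-fold in C/EBPε (adjusted p = 0.000347). All its vector arrays lay under the 1092.06 units that a tested probe set had to exceed on at least 3 arrays. Mvd was thus tested only through C/EBP arrays, where it was higher. Its calls in C/EBPα, C/EBPβ and C/EBPε were kept with no filter on dim probe sets. The C/EBPδ difference was 0.67 ± 0.41 on the log2 scale (SE; adjusted p = 0.901), with a 95% interval from -0.20 to 1.54, which holds both 0 and the 0.65 of Hmgcs1. In all 5 groups the array numbered 1 was the lowest for Mvd, and the same held for Fdps.

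Idi1, which isomerises isopentenyl diphosphate, showed the C/EBPδ gap with little spread in the lower groups. Probe set 96269_at gave 15084, 18468 and 20712 units in C/EBPα, 14673, 20643 and 15155 in C/EBPβ, 8732, 9801 and 8370 in C/EBPδ, and 14262, 21106 and 19179 in C/EBPε, against 7445, 8394 and 7747 in vector cultures. C/EBPδ overlapped vector and nothing else. Idi1 rose 2.28-fold in C/EBPα (adjusted p = 9.93e-05), 2.12-fold in C/EBPβ (adjusted p = 0.000549) and 2.28-fold in C/EBPε (adjusted p = 0.000112). The C/EBPδ difference was 0.19 on the log2 scale (adjusted p = 0.974).

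Fdps, the synthase of farnesyl diphosphate, from which sterols and prenyl groups are both made, was read by 4 probe sets. The brightest, 99098_at, gave 35040, 49230 and 52860 units in C/EBPα, 38320, 63414 and 49193 in C/EBPβ, 20264, 28303 and 23464 in C/EBPδ, and 38946, 58901 and 50892 in C/EBPε, against 17818, 23002 and 19322 in vector cultures. Again C/EBPδ overlapped vector and the other 3 groups lay above both. The folds over vector were 2.26 in C/EBPα (adjusted p = 0.000819), 2.47 in C/EBPβ (adjusted p = 0.000682), 1.19 in C/EBPδ (adjusted p = 0.962) and 2.45 in C/EBPε (adjusted p = 0.000406). A second probe set, 160424_f_at, gave log2 differences of 0.83, 1.13, 0.24 and 0.94 in the same order, past the threshold in all but C/EBPδ. The remaining probe sets, 162217_r_at and 162281_at, were too dim to test, and their group means were 103 to 589 units.

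Fdft1, squalene synthase, which joins farnesyl diphosphates and commits them to sterols, moved least among the genes that rose. Probe set 97518_at gave 8113, 9423 and 10626 units in C/EBPα, 7615, 9837 and 9102 in C/EBPβ, 8137, 7570 and 7620 in C/EBPδ, and 11132, 11799 and 11355 in C/EBPε, against 6613, 7641 and 6905 in vector cultures. The C/EBPε arrays lay above the other 12, C/EBPα lay above vector, and C/EBPβ and C/EBPδ each overlapped vector. Fdft1 rose 1.62-fold in C/EBPε (adjusted p = 0.00122) and 1.33-fold in C/EBPα (adjusted p = 0.0415). The difference in C/EBPβ was 0.32 ± 0.13 on the log2 scale (SE; adjusted p = 0.135), which was called with array weights (0.38, adjusted p = 0.0122), and that in C/EBPδ was 0.14 (adjusted p = 0.975). The C/EBPα call was lost without vector array 1 or 3, C/EBPα array 2 or 3, C/EBPβ array 3, any 1 C/EBPδ array or C/EBPε array 3, with adjusted p-values of 0.0517 to 0.188, and it was also lost without a trend in the variance prior (0.0603), without the arrays numbered 1 (0.0808) and with only the groups compared (0.120).

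Sqle, squalene epoxidase, and Lss, lanosterol synthase, act in turn on squalene and close the ring system. Sqle (94322_at) gave 18867, 16928 and 21579 units in C/EBPα, 17839, 20900 and 18190 in C/EBPβ, 7904, 9648 and 9888 in C/EBPδ, and 18872, 24163 and 18401 in C/EBPε, against 6071, 10405 and 7165 in vector cultures. Vector array 2 exceeded every C/EBPδ array, while all arrays of the other C/EBPs were above it. Sqle rose 2.48-fold in C/EBPα (adjusted p = 7.13e-05), 2.47-fold in C/EBPβ (adjusted p = 0.000208) and 2.65-fold in C/EBPε (adjusted p = 4.15e-05), and was 1.19-fold of vector in C/EBPδ (adjusted p = 0.938). Lss (160737_at) gave 6279, 5370 and 7259 units in C/EBPα, 6808, 8539 and 6761 in C/EBPβ, 3248, 3355 and 3264 in C/EBPδ, and 6794, 8836 and 8079 in C/EBPε, against 2298, 3253 and 2166 in vector cultures. The 3 C/EBPδ arrays of Lss were close to each other, 1 just below and 2 just above the highest vector array, and well below all others. Lss rose 2.47-fold in C/EBPα (adjusted p = 3.88e-05), 2.90-fold in C/EBPβ (adjusted p = 2.32e-05) and 3.11-fold in C/EBPε (adjusted p = 3.92e-06), and its log2 difference in C/EBPδ was 0.38 (adjusted p = 0.752).

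Cyp51, the cytochrome P450 that demethylates lanosterol, passed in none of the 4 comparisons with vector. Probe set 94916_at gave 4313, 3872 and 4624 units in C/EBPα, 4263, 5008 and 4206 in C/EBPβ, 3565, 3424 and 3722 in C/EBPδ, and 3913, 4995 and 3901 in C/EBPε, against 2923, 4578 and 3048 in vector cultures. Vector array 2 lay among the C/EBPα, C/EBPβ and C/EBPε arrays, and the other 2 vector arrays lay below all C/EBP arrays. The log2 differences from vector were 0.31 in C/EBPα (95% interval -0.04 to 0.66), 0.38 in C/EBPβ (0.03 to 0.73), 0.05 in C/EBPδ (-0.30 to 0.40) and 0.30 in C/EBPε (-0.05 to 0.65), with adjusted p-values of 0.269, 0.179, 0.996 and 0.243. Without vector array 2 the differences were 0.51 in C/EBPα (adjusted p = 0.0304), 0.59 in C/EBPβ (adjusted p = 0.0223) and 0.51 in C/EBPε (adjusted p = 0.0284), and all 3 were then called. With array weights C/EBPβ was called as well (adjusted p = 0.0160).

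Nsdhl, a dehydrogenase that takes part in removing methyl groups from the sterol, was read by 3 probe sets. The brightest by mean log2 signal, 98631_g_at, gave 11123, 10356 and 12366 units in C/EBPα, 11708, 12885 and 11282 in C/EBPβ, 5523, 6048 and 5521 in C/EBPδ, and 12576, 14718 and 16587 in C/EBPε, against 3629, 4827 and 3940 in vector cultures. All 3 C/EBPδ arrays exceeded all vector arrays here, as they did for Hmgcs1, and lay below all others. Nsdhl rose 2.74-fold in C/EBPα (adjusted p = 1.06e-06), 2.91-fold in C/EBPβ (adjusted p = 4.40e-06) and 3.54-fold in C/EBPε (adjusted p = 7.48e-08). The C/EBPδ difference was 0.47 on the log2 scale (adjusted p = 0.305), with a 95% interval from 0.19 to 0.76, and of the settings tried it passed with array weights alone (adjusted p = 0.0319).

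The 3 probe sets of Nsdhl differed in the size of the response. The log2 differences of 93868_at were 1.32 in C/EBPα, 1.42 in C/EBPβ, 0.42 in C/EBPδ and 1.56 in C/EBPε, close to those of 98631_g_at. Those of 98630_at were 0.54, 0.52, 0.35 and 0.66 in the same order, past the threshold in C/EBPα (adjusted p = 0.0229), C/EBPβ (0.0420) and C/EBPε (0.00636). The C/EBPα call of 98630_at was lost without vector array 2 (0.0777), vector array 3 (0.0649) or C/EBPα array 2 (0.120), and its C/EBPβ call without any 1 of the 3 vector or 3 C/EBPβ arrays, C/EBPα array 3, or C/EBPδ array 1 or 3 (0.0504 to 0.155). Each of the 3 other scalings ended its C/EBPβ call (0.0522 to 0.0905), as did no filter, no trend, leaving out the 5 arrays numbered 1 and fitting only the groups compared (0.0602 to 0.0878). Its C/EBPα call was also lost with quantile normalization (0.0528) and with only the groups compared (0.0545). The direction was the same for all 3 probe sets in the 4 comparisons.

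**Figure D2:**
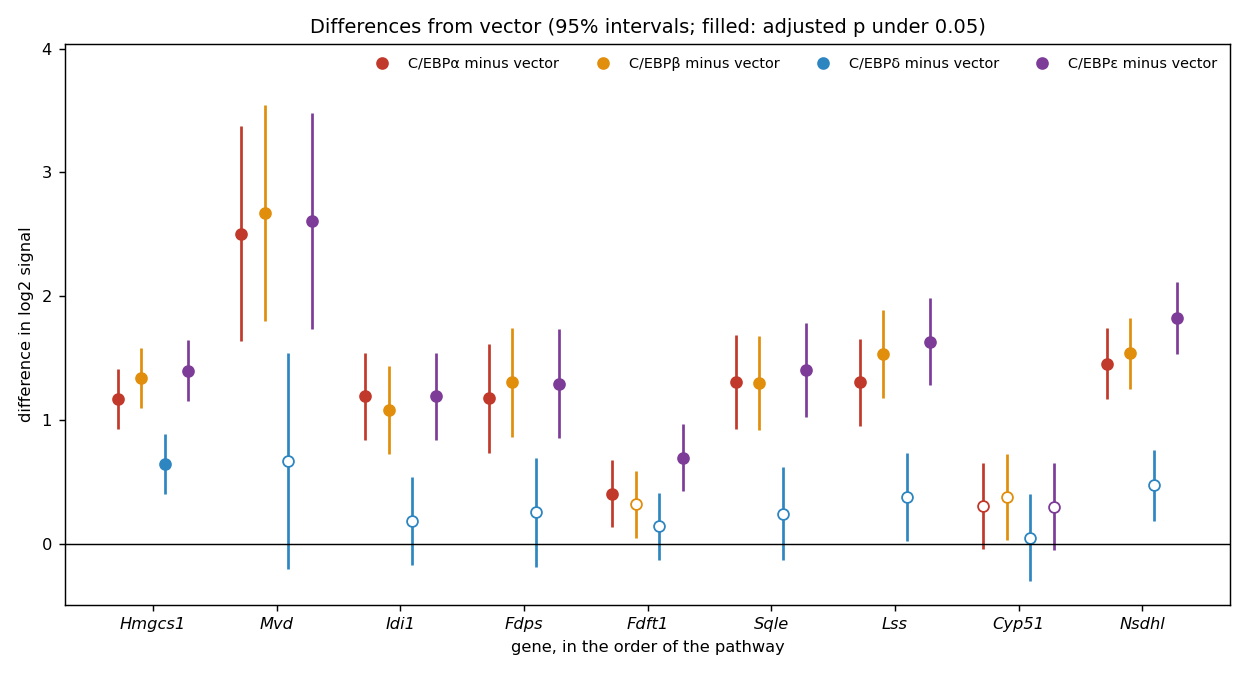
Difference in log2 signal from vector for each gene in the order of the pathway (points) with 95% intervals (lines) from the fit over 15 arrays, for C/EBPα, C/EBPβ, C/EBPδ and C/EBPε from left to right, and filled points where the adjusted p was under 0.05. Mvd reaches 2.67 in C/EBPβ with the widest intervals, Fdft1 and Cyp51 lie lowest, and the C/EBPδ points lie below the other 3 for each gene.

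The C/EBPs were then set against each other. Of 54 comparisons (9 genes, 6 pairs of C/EBPs) 22 passed, and all 22 were among the 27 that involved C/EBPδ. C/EBPδ was lower than C/EBPα in 7 genes, against 3.35% of all probe sets, and lower than C/EBPβ in 7, against 2.11%. C/EBPε was higher than C/EBPδ in 8, against 3.81%. The genes were Hmgcs1, Mvd, Idi1, Fdps, Sqle, Lss and Nsdhl, with Fdft1 added in the comparison of C/EBPε with C/EBPδ. The moderated F-test over the 4 C/EBPs passed in 8 genes, against 10.2% of probe sets, and the test over all 5 groups in the same 8, against 16.5%. Cyp51 was the gene that passed in neither (adjusted p = 0.510 over the 4 C/EBPs and 0.310 over the 5 groups).

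The gap was close to 1 log2 unit for most genes. Sqle fell by 1.06 on the log2 scale in C/EBPδ relative to C/EBPα (adjusted p = 0.000863) and by 1.06 relative to C/EBPβ (adjusted p = 0.00196). On probe set 98631_g_at, Nsdhl fell by 0.98 relative to C/EBPα (adjusted p = 0.000155) and by 1.07 relative to C/EBPβ (adjusted p = 0.000157). It was 1.35 higher in C/EBPε than in C/EBPδ (adjusted p = 4.91e-06). Probe set 93868_at of Nsdhl also passed in each of these comparisons (adjusted p = 0.000203, 0.000164 and 1.997e-05). Probe set 98630_at passed in none of them. Its C/EBPδ signal differed by -0.185 from C/EBPα (adjusted p = 0.549) and by -0.162 from C/EBPβ (0.664). Its C/EBPε signal was 0.307 above C/EBPδ (0.238), and its F-test over the C/EBPs did not pass (0.539). Hmgcs1, the gene that rose in C/EBPδ, had the smallest gap of the 7 to C/EBPα, with a difference of -0.52 (adjusted p = 0.00806), and Mvd had the largest, with -1.84 (adjusted p = 0.00888). Fdft1 was 0.56 higher in C/EBPε than in C/EBPδ (adjusted p = 0.0114), while its differences of C/EBPδ from C/EBPα and C/EBPβ were -0.26 and -0.18 and did not pass.

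Some of these calls were near the threshold. The lower Fdps signal in C/EBPδ than in C/EBPα, -0.92, was not called without C/EBPα array 2 (adjusted p = 0.0508), C/EBPα array 3 (0.0547) or C/EBPδ array 1 (0.0516), and that of Mvd was not called without C/EBPα array 3 (0.0534) or with no filter on dim probe sets (0.0558), which also ended its call against C/EBPβ (0.0557). That of Hmgcs1 was not called without the 5 arrays numbered 1 (0.159). On the second Fdps probe set, 160424_f_at, C/EBPδ differed from C/EBPα by -0.59 (adjusted p = 0.0290). This call was lost without any 1 C/EBPα array, C/EBPδ array 1 or 3, the 5 arrays numbered 1 or the filter (0.0661 to 0.130). Its higher signal in C/EBPε than in C/EBPδ, 0.70 (adjusted p = 0.0115), was lost without C/EBPδ array 1 or 3 or C/EBPε array 2 (0.0506 to 0.0552).

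Among C/EBPα, C/EBPβ and C/EBPε, 0 of 27 comparisons passed limma's test and 3 had an unadjusted p under 0.05, with 24 of the 27 above it. The background was 2.86% of probe sets called between C/EBPβ and C/EBPα, 1.31% between C/EBPε and C/EBPα and 2.34% between C/EBPε and C/EBPβ. Differences ran from -0.11 to 0.38 on the log2 scale, and the lowest adjusted p was 0.168, for Fdft1 in C/EBPε against C/EBPβ. Leaving Mvd aside, the 95% intervals reached from -0.46 (Idi1, C/EBPβ minus C/EBPα) to 0.68 (Lss, C/EBPε minus C/EBPα). For Mvd they reached from -0.94 to 1.04, so larger differences could not be told from 0 there. With array weights, Fdft1 (0.35, adjusted p = 0.0277) and Nsdhl (0.43, adjusted p = 0.0121) were called higher in C/EBPε than in C/EBPβ.

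**Figure D3:**
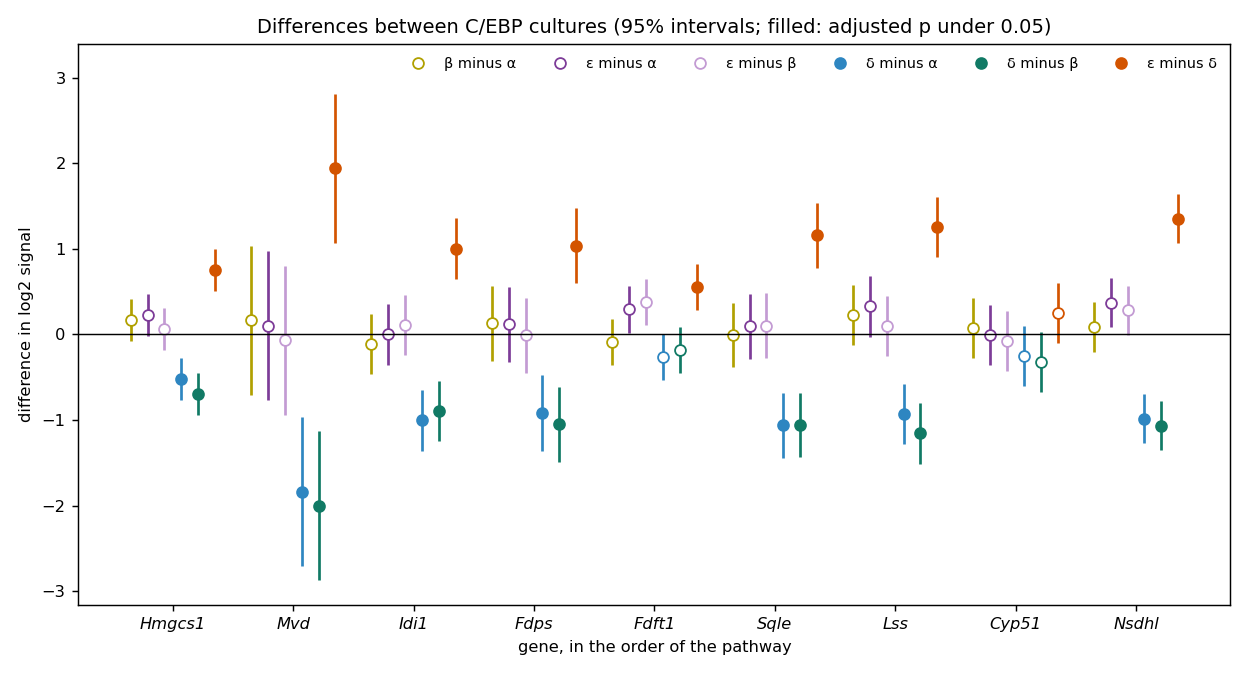
Difference in log2 signal between C/EBP groups for each gene in the order of the pathway (points) with 95% intervals (lines), and filled points where the adjusted p was under 0.05. The 3 pairs without C/EBPδ (first 3 points of each gene) lie around 0 and are all open, and the pairs with C/EBPδ are filled for 7 genes on every pair and for Fdft1 in ε minus δ.

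Across the 15 arrays the 9 genes moved together to different degrees. The Pearson correlation of each gene's log2 signal with the mean standardised profile of the other 8 was 0.986 for Lss, 0.982 for Sqle, 0.973 for Nsdhl, 0.967 for Fdps, 0.961 for Idi1, 0.947 for Mvd, 0.914 for Hmgcs1, 0.842 for Fdft1 and 0.761 for Cyp51. These correlations are over 15 arrays in 5 groups that share their array-wide scaling, and they contain the group differences. By the same measure, the 10 other genes closest to the mean profile of the 9 were Nedd4, a ubiquitin ligase (r = 0.978), Armcx2 (0.963), Msmo1 (0.961), Kpnb1, the importin that carries proteins into the nucleus (0.960), Samm50 (0.958), Etfa (0.955), Mrpl4 (0.954), Hmgb3 (0.952), Hadhb (0.950) and Dnajc3 (0.949). They were chosen for this likeness from all genes tested. Nedd4 averaged 11255 ± 1097 units in C/EBPα, 11821 ± 1450 in C/EBPβ, 7628 ± 410 in C/EBPδ, 12208 ± 1694 in C/EBPε and 6509 ± 527 in vector cultures (SD, n = 3 each). One of the 10, Msmo1, is itself an enzyme of the pathway, the oxidase that acts on the sterol methyl groups before Nsdhl.

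Other genes of sterol and lipid metabolism were read from lists by role. Among 8 later sterol genes, all tested, 1 rose in C/EBPα, 1 in C/EBPβ, 0 in C/EBPδ and 3 in C/EBPε, and 0 fell, with median log2 differences of 0.24, 0.33, 0.14 and 0.43 in the same order. Of all probe sets tested, 7.17%, 5.13%, 0.359% and 9.38% rose in that order. Msmo1 gave 8034, 8617 and 9536 units in C/EBPα, 8761, 10411 and 9198 in C/EBPβ, 5296, 6973 and 6051 in C/EBPδ, and 8440, 11276 and 8159 in C/EBPε, against 4072, 6571 and 5107 in vector cultures. The C/EBPδ and vector arrays overlapped, and all arrays of the other 3 C/EBPs lay above both. Msmo1 rose by 0.76 on the log2 scale in C/EBPα (adjusted p = 0.00632), by 0.87 in C/EBPβ (adjusted p = 0.00400) and by 0.84 in C/EBPε (adjusted p = 0.00319), and the C/EBPα call was lost without the 5 arrays numbered 1 (0.0554). Lbr, a sterol reductase of the nuclear envelope, rose by 0.50 in C/EBPε (adjusted p = 0.0206) and Ebp, a sterol isomerase, by 0.53 (adjusted p = 0.0193). Both calls were lost without vector array 1 or 3 or C/EBPε array 2, that of Lbr also without C/EBPε array 1 and that of Ebp without C/EBPε array 3 (0.0523 to 0.101). Both were also lost with only the groups compared, and that of Lbr without the 5 arrays numbered 1 (0.0895 to 0.152). Dhcr7, the reductase of the last step, had no call in any comparison, with means of 1570 ± 211 units in C/EBPα, 1494 ± 325 in C/EBPβ, 1246 ± 57.4 in C/EBPδ, 1683 ± 111 in C/EBPε and 1345 ± 71.4 in vector cultures (SD, n = 3 each).

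Mvk, mevalonate kinase, which acts between the steps of Hmgcs1 and Mvd, had probe sets that disagreed. The brighter gave log2 differences from vector of 0.22 in C/EBPα, 0.17 in C/EBPβ, 0.03 in C/EBPδ and 0.35 in C/EBPε, none past the threshold. The dimmer gave 767, 770 and 1384 units in C/EBPα, 833, 2344 and 946 in C/EBPβ, 215, 308 and 201 in C/EBPδ, and 465, 2233 and 897 in C/EBPε, against 167, 290 and 257 in vector cultures. C/EBPδ overlapped vector on it and the other 3 groups lay above. This probe set was bright enough to test only through C/EBPα array 3, C/EBPβ array 2 and C/EBPε array 2, all in groups where it was high. Its differences were 1.95 in C/EBPα, 2.34 in C/EBPβ, -0.03 in C/EBPδ and 2.01 in C/EBPε, and those of C/EBPα, C/EBPβ and C/EBPε passed (adjusted p = 0.0279, 0.0145 and 0.0219). With the floor on low signals raised to the 40th percentile these 3 fell to 0.48, 0.87 and 0.72 and were no longer called (adjusted p = 0.522, 0.206 and 0.256), and each was also lost without vector array 1 (0.0844, 0.0507 and 0.0693). The C/EBPα call was further lost without vector array 3 or C/EBPα array 3, the C/EBPβ call without C/EBPβ array 2, and the C/EBPε call without vector array 3 or C/EBPε array 2 or 3 (0.0509 to 0.136). With no filter on dim probe sets the C/EBPα call was lost as well (0.0565).

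Few regulators of the pathway could be read, and most of those read had no call. Of 4 genes of SREBP control on the array 3 were tested, and Mbtps1, the site-1 protease that cleaves SREBPs, rose by 0.60 in C/EBPε (adjusted p = 0.0297) and was the only call, where 9.38% of all probe sets rose. That call was lost without vector array 1 or 3 or C/EBPε array 2 or 3 (0.0796 to 0.105), without the 5 arrays numbered 1 and with no filter (0.0578 to 0.0735). In C/EBPα the difference of Mbtps1 was 0.49 (adjusted p = 0.0826), and it was called under each of the 3 other scalings, with array weights, without the 5 arrays numbered 1 and without C/EBPα array 1 (0.0225 to 0.0491). In C/EBPβ it was 0.39 (adjusted p = 0.208), called with array weights (0.0261). Srebf1, which encodes SREBP-1, averaged 4471 ± 167 units in C/EBPα, 4003 ± 73.0 in C/EBPβ, 4309 ± 876 in C/EBPδ, 4860 ± 459 in C/EBPε and 4501 ± 837 in vector cultures (SD, n = 3 each), with log2 differences from vector of 0.01, -0.15, -0.07 and 0.12 and no call. Insig1, which holds SREBPs in the endoplasmic reticulum and is itself an SREBP target, was below the floor of 189.652 units on all arrays and gave no reading. Srebf2 was not analysed here. These are transcript signals, and the cleavage by which SREBPs are activated was not measured.

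Fatty acid synthesis genes, which SREBP-1 controls, rose in part. Of 10 tested, 3 rose in C/EBPα, 5 in C/EBPβ, 0 in C/EBPδ and 5 in C/EBPε, and 0 fell, with median log2 differences of 0.41, 0.52, 0.18 and 0.59 in the same order. The shares of all probe sets that rose were 7.17%, 5.13%, 0.359% and 9.38%. In C/EBPα the desaturases Scd1 (0.48, adjusted p = 0.0821) and Scd2 (0.42, adjusted p = 0.0657) were not called, but under each of the 3 other scalings both were, which made the count 5 (0.0190 to 0.0432 for Scd1 and 0.000348 to 0.0187 for Scd2). Elovl6, which lengthens saturated fatty acids, gave on its brighter probe set 4756, 3152 and 3827 units in C/EBPα, 4502, 4864 and 4624 in C/EBPβ, 1487, 2284 and 1489 in C/EBPδ, and 4007, 4595 and 4240 in C/EBPε, against 1408, 1996 and 1075 in vector cultures. C/EBPδ overlapped vector and no other group. Elovl6 rose 2.67-fold in C/EBPα (adjusted p = 0.000219), 3.22-fold in C/EBPβ (adjusted p = 0.000118) and 2.96-fold in C/EBPε (adjusted p = 9.88e-05), and no array left out nor any other setting tried ended these calls of the brighter probe set. The dimmer one gave smaller log2 differences of 1.03 in C/EBPα (adjusted p = 0.00647), 1.11 in C/EBPβ (0.00641), 0.18 in C/EBPδ (0.993) and 0.89 in C/EBPε (0.0166). Its C/EBPε call was lost without vector array 1 or 3, C/EBPε array 2 or the 5 arrays numbered 1, and with only the groups compared (0.0511 to 0.0774). Fasn, fatty acid synthase, rose by 0.59 on the log2 scale in C/EBPε (adjusted p = 0.00665), Scd2 by 0.63 in C/EBPε (adjusted p = 0.00585), and Mid1ip1 by 0.55 in both C/EBPβ (adjusted p = 0.00404) and C/EBPε (adjusted p = 0.00256). Without the 5 arrays numbered 1 the calls of Fasn in C/EBPε (0.0662) and of Mid1ip1 in C/EBPβ (0.0591) and C/EBPε (0.0740) were lost, and with only the groups compared that of Scd2 in C/EBPε (0.0574). The calls of Fasn and Mid1ip1 in C/EBPα, of Fasn, Scd1 and Scd2 in C/EBPβ and of Me1 in C/EBPε were each lost in 3 to 9 of the 15 fits that left out 1 array, vector array 1 among them every time (0.0510 to 0.190).

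Few genes of sterol uptake and of the isoprenoid branch were called, some higher and some lower. Median log2 differences of the uptake genes were 0.03 in C/EBPα, 0.05 in C/EBPβ, -0.01 in C/EBPδ and 0.18 in C/EBPε. Those of the isoprenoid genes were 0.05, 0.00, 0.14 and 0.11 in the same order. Of all probe sets tested, 7.17% rose and 7.15% fell in C/EBPα, 5.13% and 4.18% in C/EBPβ, and 9.38% and 6.91% in C/EBPε. Of 8 uptake and trafficking genes, Scarb1, the HDL receptor, rose by 0.73 in C/EBPε (adjusted p = 0.00436) and by 0.60 in C/EBPα (adjusted p = 0.0170), the C/EBPα call being lost without vector array 3 (0.102) or C/EBPα array 3 (0.0644). Npc1, which moves cholesterol out of lysosomes, fell by 0.63 in C/EBPα (adjusted p = 0.00673). Without the 5 arrays numbered 1 the C/EBPα calls of Scarb1 and Npc1 were lost (0.0682 and 0.118). Npc1 also fell by 0.46 in C/EBPε (adjusted p = 0.0389), a call lost in 7 of the 15 fits without 1 array, those of vector array 1 or 2, C/EBPβ array 3, C/EBPδ array 3 and each C/EBPε array (0.0528 to 0.126). It was lost as well with array weights, without the 5 arrays numbered 1 and with only the groups compared (0.0677 to 0.251). Of 6 isoprenoid genes tested, Fnta, the shared subunit of the protein prenyltransferases, rose in C/EBPα (0.65, adjusted p = 0.0308) and C/EBPε (0.71, adjusted p = 0.0174). Rabggta, a subunit of the Rab prenyltransferase, rose in C/EBPα (1.51, adjusted p = 0.0420), and Rce1, a protease of prenylated proteins, fell by 0.59 in C/EBPα (adjusted p = 0.0161) and by 0.64 in C/EBPβ (adjusted p = 0.0145). Each of these isoprenoid calls was lost in 2 to 6 of the 15 fits without 1 array (0.0502 to 0.182). For Fnta the arrays were vector array 3 in both comparisons, C/EBPε array 2 in C/EBPε, and vector array 1 and C/EBPα arrays 2 and 3 in C/EBPα. For Rabggta they were vector arrays 1 and 2, each C/EBPα array and C/EBPε array 3. For Rce1 they were vector array 3 in both comparisons, C/EBPβ arrays 1 and 3 in C/EBPβ, and vector array 2 and C/EBPα arrays 1 and 2 in C/EBPα. With no filter both Fnta calls and that of Rabggta were lost, and with no trend that of Fnta in C/EBPα. Without the 5 arrays numbered 1 the calls of Fnta in C/EBPε, of Rabggta and of Rce1 were lost. Adjusted p-values under these settings were 0.0507 to 0.131. The efflux and ester lists each had 2 genes bright enough to test and 0 calls by limma, with 1 gene (Abca1 in C/EBPα, 1.10 on the log2 scale) at an unadjusted p under 0.05, which was called with the floor at the 40th percentile, quantile normalization, no trend, array weights, or C/EBPβ array 2 left out (0.00642 to 0.0474). C/EBPδ had 0 calls by limma in these lists, with 1 gene, among the later sterol genes, at an unadjusted p under 0.05.

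**Figure D4:**
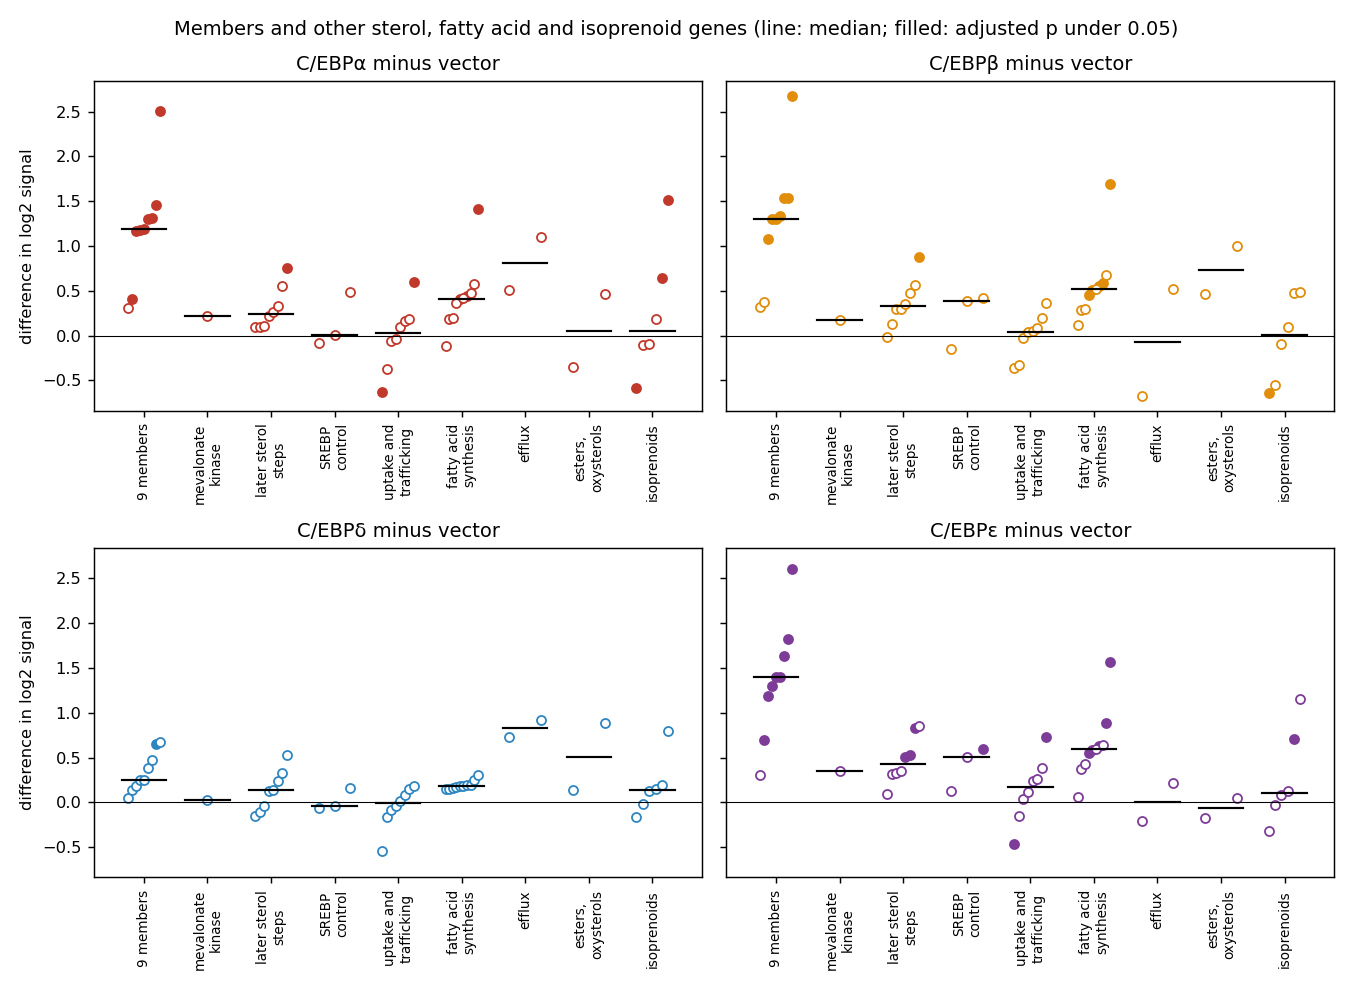
Difference in log2 signal from vector for the 9 genes and for genes of 8 other lists of sterol, fatty acid and isoprenoid metabolism, 1 panel per C/EBP, with 1 point per gene (brightest probe set), a line at the median and filled points where the adjusted p was under 0.05. The medians of the 9 genes are 1.19 in C/EBPα, 1.31 in C/EBPβ and 1.40 in C/EBPε, and 0.25 in C/EBPδ, where 1 point is filled.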

How the data were processed

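Each of the 15 arrays had 1 column of signal intensity per probe set, which the authors deposited after analysis with Affymetrix Microarray Suite 5.0, per the submitters' processing notes. The values are linear and carry no detection calls, so a floor and a filter on signal stood in for the labels' filter on absent calls. Precision rests on 3 arrays per group.

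Controls (66 of 12488 probe sets) were removed. Each array was scaled to the mean of the array medians, the pooled 20th percentile (189.652 units) served as a floor, and signals were expressed as log2. Probe sets above the pooled median (1092.06 units) on at least 3 arrays were tested, 6963 in all. The array annotation named 1 gene for 10833 probe sets, several for 396 and none for 1193. The model was fitted to the 5 groups together (lmFit and eBayes with a trend, limma 3.58.1, R 4.3.3), two-sided, with Benjamini-Hochberg adjustment within each contrast and a threshold of 0.05. A gene was read by its tested probe set of highest mean log2 signal.

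The 9 genes and the other lists were chosen with earlier results of these data known. The text names all probe sets of the 9 genes, list genes that passed, regulators, and the 10 genes most like the mean profile. Alternatives covered scaling, floor, filter, variance trend, array weights, replicate number as a block, the groups in the fit and arrays left out. The fit was tested on simulated data.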

Additional observations from a re-analysis of the deposited data

How the results depend on the processing

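Of 191 recomputed counts for the 9 genes, 184 stayed within 1.5 times the reported count. Counts of 7 or 8 out of 9 could not rise past that bound, so for them it could show only a large fall. Of 3240 recomputed differences 56 lost and 8 gained a call, with 0 reversed. For the other genes named, 221 of 5912 recomputed differences lost and 62 gained a call, with 0 reversed. The count in C/EBPδ against vector was 2 with array weights, 0 without the 5 arrays numbered 1 and 0 with only the groups compared. Leaving out 1 array at a time gave 7 to 9 genes in C/EBPα, 7 to 8 in C/EBPβ, 0 to 1 in C/EBPδ and 8 to 9 in C/EBPε against vector, 20 to 22 calls between C/EBPs, 8 to 9 genes in the F-test over 5 groups and 6 to 8 over the 4 C/EBPs. Fits that left arrays out had fewer arrays, and the cause of these changes was not tested.

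Counts over all probe sets moved more. Array weights gave 1576 in C/EBPβ, 74 in C/EBPδ and 1730 in C/EBPε against vector, where 648, 25 and 1134 were reported. Leaving out the arrays numbered 1 gave 654 in C/EBPα, 339 in C/EBPβ, 11 in C/EBPδ and 693 in C/EBPε, against 997 reported in C/EBPα. Quantile normalization gave 39 in C/EBPδ, and with only the groups compared the counts were 15 in C/EBPδ and 690 in C/EBPε. Between C/EBPs, array weights gave 434 for C/EBPβ against C/EBPα, 930 and 1284 for C/EBPδ against C/EBPα and C/EBPβ, and 950 and 1506 for C/EBPε against C/EBPβ and C/EBPδ, where 199, 585, 332, 163 and 572 were found in the fit reported. Quantile normalization gave 299 for C/EBPβ against C/EBPα, 580 for C/EBPδ against C/EBPβ, and 142 and 284 for C/EBPε against C/EBPα and C/EBPβ, where C/EBPε against C/EBPα had 91. No further scaling gave 526, 142 and 253 for those last 3 pairs. Without the arrays numbered 1, C/EBPε had 42, 71 and 365 against C/EBPα, C/EBPβ and C/EBPδ, and C/EBPδ had 134 against C/EBPβ. With only the groups compared, C/EBPε had 72 against C/EBPβ. Leaving out 1 array lowered the count to 372 in C/EBPβ (without C/EBPβ array 3), 13 in C/EBPδ (C/EBPδ array 2) and 750 in C/EBPε (vector array 3) against vector. Between C/EBPs the lowest counts were 382 for C/EBPδ against C/EBPα (without C/EBPα array 2), 189 for C/EBPδ against C/EBPβ and 342 for C/EBPε against C/EBPδ (each without C/EBPδ array 3), and 55 and 85 for C/EBPε against C/EBPα and C/EBPβ (each without C/EBPε array 3). The highest count for each of these comparisons was within 1.5 times that reported.

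Same-numbered arrays deviated together in part: over 30 pairs from different groups the correlation of deviations had a median of 0.25 and ranged from -0.07 to 0.44, and 13 of 15 arrays correlated best with their own number, a hint from the data only. The 10 pairs of arrays numbered 1 ran from 0.22 to 0.44, those numbered 2 from 0.02 to 0.43 and those numbered 3 from -0.07 to 0.12. Since not every pair was above 0.1, the numbers were not taken to pair the arrays. With the replicate number as a block the 9 genes gave the same counts (8, 7, 1 and 8 against vector, 22 between C/EBPs, 8 in each F-test), while counts over all probe sets against vector were 1440 in C/EBPα, 1099 in C/EBPβ, 44 in C/EBPδ and 1676 in C/EBPε. Between C/EBPs the block gave 347 for C/EBPβ against C/EBPα, 990 and 684 for C/EBPδ against C/EBPα and C/EBPβ, and 171, 310 and 1037 for C/EBPε against C/EBPα, C/EBPβ and C/EBPδ. With the block Mbtps1 was called in C/EBPα (adjusted p = 0.00917) and C/EBPβ (0.0431), and Scd1 (0.00779) and Scd2 (0.00935) in C/EBPα.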
